A study of Mus musculus with 48 samples.

Results

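The Sonic hedgehog signalling genes were followed in mouse forelimb buds after maternal exposure to either of 2 teratogens. The members were Shh, Ptch1, Gli1, Gli2, Gli3, Smo and Hhip, and every probe set naming one of these symbols alone was taken. This gave 7 probe sets for 6 of the 7 genes, out of 12488 probe sets on the array and 8251 genes named by a probe set of their own. Ptch1 had 2 probe sets, each shown separately. Hhip, a membrane protein that binds and holds back the ligand, had none and was not analysed here.

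Pregnant mice of a strain not given in the sources used here were injected intraperitoneally on gestation day 9.5. They received cadmium sulfate at 4 mg/kg in phosphate-buffered saline (PBS), or acetazolamide, a carbonic anhydrase inhibitor, at 400 mg/kg suspended in vegetable oil. The controls received PBS or oil. Right forelimb buds were collected 3 h or 12 h later and separated with trypsin into ectoderm, the outer epithelium, and mesoderm, the core. Each agent and each vehicle therefore gave 4 groups (3 h ectoderm, 3 h mesoderm, 12 h ectoderm and 12 h mesoderm), 16 groups of 3 arrays and 48 arrays in all. Each RNA was a pool of tissue from several litters, and RNA extracts were not pooled further. The labels do not say which litters entered which pool, so the p-values measure the spread between these arrays. The question put by the series was what 2 agents that cause a similar limb phenotype do to gene expression.

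Sonic hedgehog is secreted by the zone of polarizing activity, a patch of mesoderm at the posterior margin of the limb bud, and sets the number and identity of the digits. It binds the receptor Patched1, which otherwise silences the transmembrane protein Smoothened. Active Smoothened alters the processing of the zinc finger factors Gli2 and Gli3, and Gli1 and Ptch1 are themselves transcribed in response. Ptch1 and Gli1 transcripts are for this reason widely used as readouts of the pathway.

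The deposited values were ratios to vehicle arrays, not levels. In all 8 comparisons the ratios of vehicle arrays 1 and 2 added up to 2 at every probe set, to within 3e-07, and vehicle array 3 was 1, to within 6e-08. Vehicle arrays 1 and 2 thus mirror each other around their mean, and array 3 carries no spread of its own. The level of a gene, its detection above background and the order of the genes cannot be read from such values, nor can the labels ectoderm and mesoderm be checked by the level of their markers. Every value below is a log2 ratio to vehicle, in which vehicle array 3 is 0, and every effect is a log2 difference, treated minus vehicle, ± its standard error, with 3 arrays a group. Effects were estimated with limma in 1 model of all 48 arrays and 12422 probe sets. P-values were adjusted by Benjamini and Hochberg's method over those probe sets in each comparison, and an effect was called at an adjusted p under 0.05. In bulk tissue, fewer cells of a type and less RNA per cell cannot be told apart.

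None of the 6 genes was called in any comparison. Of the 56 effects (7 probe sets in 8 comparisons), 0 passed the limma test after adjustment, where 0.204% of all probe set effects did, and the smallest adjusted p was 0.624. At an unadjusted p under 0.05 there were 2, Smo in ectoderm 3 h after acetazolamide and Shh in ectoderm 12 h after acetazolamide. These made 3.57% of the members' effects, against 5.55% of all effects. In 4 effects the 3 treated arrays lay wholly to one side of the 3 vehicle arrays, 1 above and 3 below. That was 7.14% of the members' effects, against 12.3% over all probe sets (6.19% above and 6.15% below). Both shares were below those of the array as a whole. By comparison, the share of all probe sets with an unadjusted p under 0.05 after cadmium was 3.39% in ectoderm and 3.17% in mesoderm at 3 h, and 4.22% and 12.5% at 12 h. After acetazolamide it was 6.52% in ectoderm and 6.49% in mesoderm at 3 h, and 7.4% and 0.708% at 12 h.

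The intervals say how large a change in the measured ratios these arrays leave room for. Detection of the transcripts above background is unknown, so they set no limit on change in the transcripts themselves. The 95% interval lay within 2-fold either way in 48 of the 56 effects, against 94.4% of all effects, and the remaining 8 all belonged to the first Ptch1 probe set. It lay within 1.5-fold in 39 of the 56, against 74.2%. Shh, Gli2 and Gli3 met the 1.5-fold bound in all 8 comparisons. The intervals are for single effects and were not widened for their number.

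**Figure D1:**
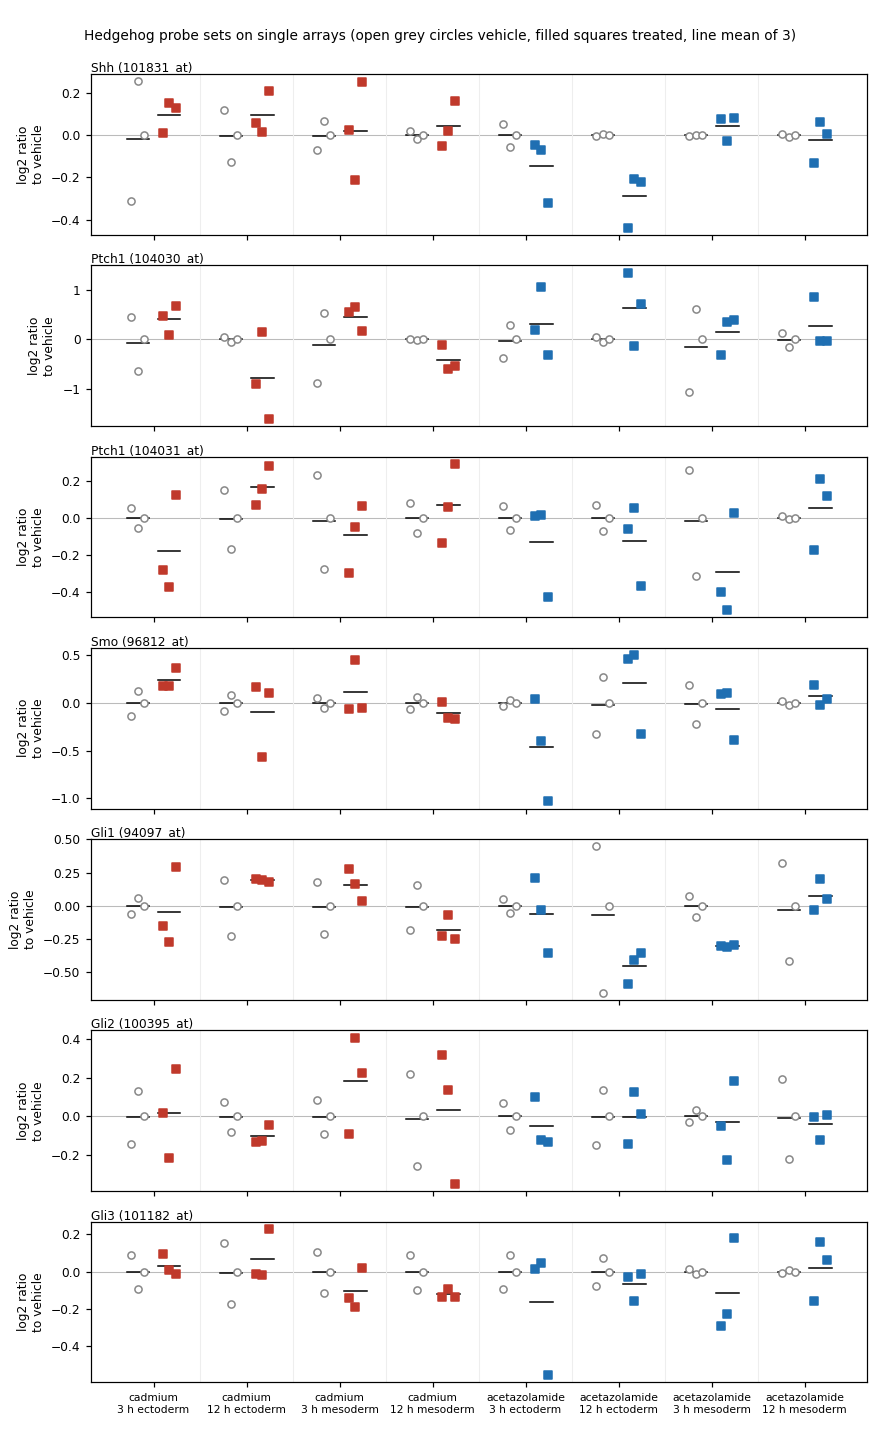
Log2 ratio to vehicle (vertical axes, scaled separately for each panel) of the 7 Hedgehog probe sets in the 8 comparisons (horizontal axis). Open grey circles are the 3 vehicle arrays, filled squares the 3 treated arrays and lines the mean of the 3 arrays of each group. The treated arrays of Shh span -0.44 to 0.26 and those of Ptch1 104030_at span -1.61 to 1.36.

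Shh (101831_at), the ligand, changed little between arrays. Its 24 treated arrays ran from -0.44 to 0.26 with a median of 0.01, and its residual SD of 0.131 was among the smaller ones, with 25.6% of probe sets below it. The most displaced group was ectoderm 12 h after acetazolamide, where the treated arrays were at -0.44, -0.21 and -0.22 and the vehicle arrays within 0.01 of 0. All 3 treated arrays lay below the vehicle arrays, as did those of 8.45% of all probe sets in this comparison. The effect was -0.29 ± 0.14, or 1.22-fold lower, with an unadjusted p of 0.0499 and an adjusted p of 0.675 by limma. By limma 0 of all probe sets were called in this comparison.

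Shh transcript in the limb bud normally comes from mesoderm, so the ectoderm values bear on whatever Shh signal the epithelial fraction held. Lists of marker genes for other tissues are given beside it, of which no probe set was called by limma there and 47.4% of all probe sets were above 0. The notochord, floor plate and gut list, tissues that also make Shh, had a median effect of -0.21 with 0 of 8 probe sets above 0, and the myogenic list had -0.17 with 0 of 9 above 0. The limb mesoderm list stood at -0.04 with 10 of 25 above 0, the blood list at -0.15 with 5 of 16, the endothelial list at -0.13 with 4 of 19, the neural crest and nerve list at -0.08 with 5 of 13, and the ectoderm list at 0.03 with 16 of 31, beside -0.01 for all probe sets. Their part in the Shh value was not tested. The summed level of these markers cannot be given from ratios.

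In the other ectoderm groups Shh stayed closer to its vehicle. At 3 h after acetazolamide the treated arrays were at -0.05, -0.07 and -0.32 and vehicle arrays 1 and 2 at 0.05 and -0.06, an effect of -0.14 ± 0.11. At 3 h after cadmium they were at 0.01, 0.15 and 0.13 within vehicle arrays at -0.31 and 0.26, an effect of 0.12 ± 0.10. At 12 h after cadmium the effect was 0.10 ± 0.16. Both cadmium groups in ectoderm overlapped their vehicle.

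In mesoderm, the tissue of the polarizing zone, the 4 Shh effects lay between -0.02 and 0.04. At 12 h after cadmium the treated arrays were at -0.05, 0.02 and 0.16, an effect of 0.04 ± 0.09 whose 95% interval ran from 0.914-fold to 1.16-fold. At 12 h after acetazolamide they were at -0.13, 0.07 and 0.00, an effect of -0.02 ± 0.12. At 3 h the effects were 0.02 ± 0.09 after cadmium and 0.04 ± 0.12 after acetazolamide. Treated and vehicle arrays overlapped in all 4 mesoderm comparisons.

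**Figure D2:**
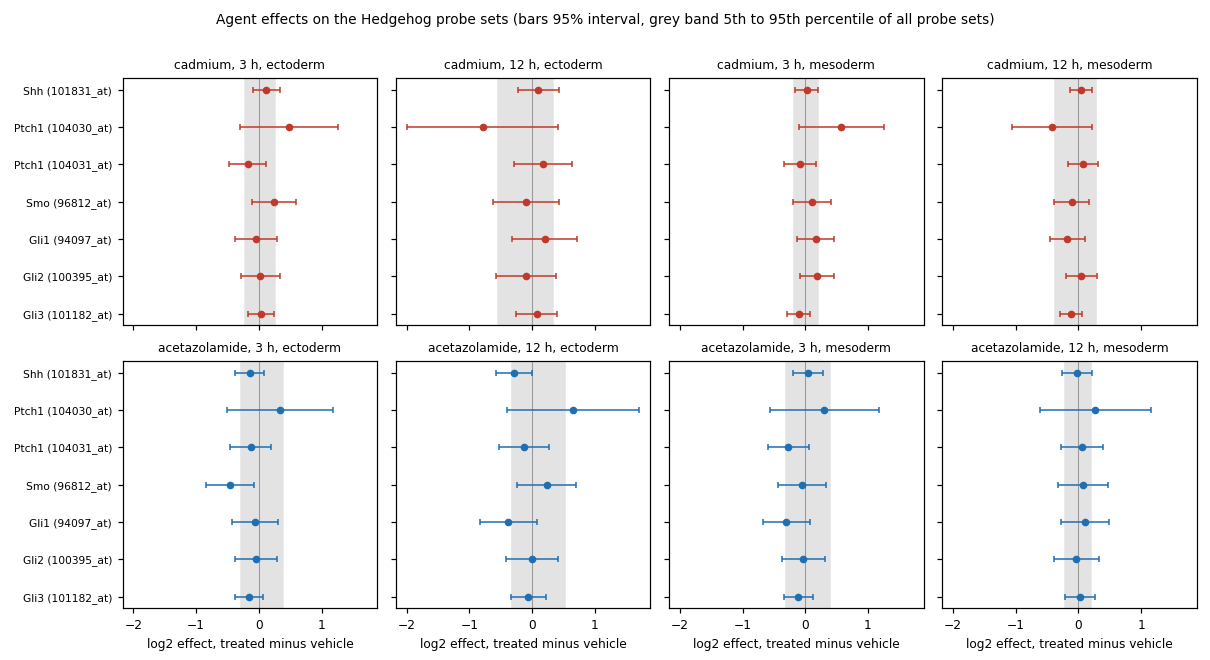
Log2 effect, treated minus vehicle (horizontal axes), of each Hedgehog probe set (vertical axes) in the 8 comparisons. Points are limma estimates from 3 against 3 arrays, bars their 95% intervals and the grey band the 5th to 95th percentile of all probe sets. The bars of Ptch1 104030_at pass 2-fold in all 8 comparisons, while those of Shh and Gli3 stay within 1.5-fold.

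Ptch1, the receptor and a transcriptional readout, gave different values in its 2 probe sets. Probe set 104030_at scattered widely, with a residual SD of 0.525 that exceeded those of 98.8% of probe sets and 2.77 times that of 104031_at. Probe set 104031_at had a residual SD of 0.190, above 57.3% of probe sets. Their effects had opposite signs in 7 of the 8 comparisons and their values had opposite signs on 15 of the 24 treated arrays. Across those arrays their Pearson r was -0.32, a description of arrays that share denominators in pairs. The array sequences of the probe sets were not used here, so which one follows the Ptch1 transcript was not tested.

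By 104030_at, mesoderm 3 h after cadmium was at 0.55, 0.66 and 0.17, with vehicle arrays 1 and 2 at -0.88 and 0.54. The effect was 0.58 ± 0.33, and the vehicle arrays spread further than the treated ones. At 12 h after cadmium the mesoderm arrays were at -0.12, -0.61 and -0.54, with vehicle arrays at 0.02 and -0.02. All 3 lay below the vehicle arrays, as did 8.98% of all probe sets there, and the effect of -0.42 ± 0.31 had an adjusted p of 0.660 by limma. In this comparison 1.58% of all probe sets were called.

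In the other 6 comparisons the 104030_at arrays overlapped their vehicle. In ectoderm 12 h after cadmium the treated arrays were at -0.90, 0.16 and -1.61, an effect of -0.78 ± 0.59 with an interval from -1.99 to 0.42. In ectoderm 12 h after acetazolamide they were at 1.36, -0.13 and 0.71, an effect of 0.65 ± 0.51. Single arrays thus differed by more than 1 log2 unit within a group. Ectoderm 3 h after cadmium was at 0.47, 0.09 and 0.68, with vehicle arrays 1 and 2 at 0.45 and -0.65, an effect of 0.48 ± 0.38. Arrays 1 and 3 lay above every vehicle array and array 2 within their range. Leaving out 1 array at a time gave effects from 0.11 to 0.92 in mesoderm 3 h after cadmium, -1.20 to -0.37 in ectoderm 12 h after cadmium, and 0.23 to 1.08 in ectoderm 12 h after acetazolamide. The remaining 3 acetazolamide effects were 0.34 ± 0.42 (3 h ectoderm), 0.30 ± 0.42 (3 h mesoderm) and 0.27 ± 0.43 (12 h mesoderm).

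By 104031_at, all Ptch1 effects lay between -0.27 and 0.17. The lowest was mesoderm 3 h after acetazolamide, with treated arrays at -0.40, -0.50 and 0.03 and vehicle arrays at 0.26 and -0.31. Its effect of -0.27 ± 0.16 had an adjusted p of 0.851 by limma, and the groups overlapped. The highest was ectoderm 12 h after cadmium at 0.17 ± 0.22, where the other probe set gave its lowest value. The cadmium mesoderm effects, where 104030_at had 0.58 and -0.42, were -0.08 ± 0.13 at 3 h and 0.07 ± 0.12 at 12 h.

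**Figure D3:**
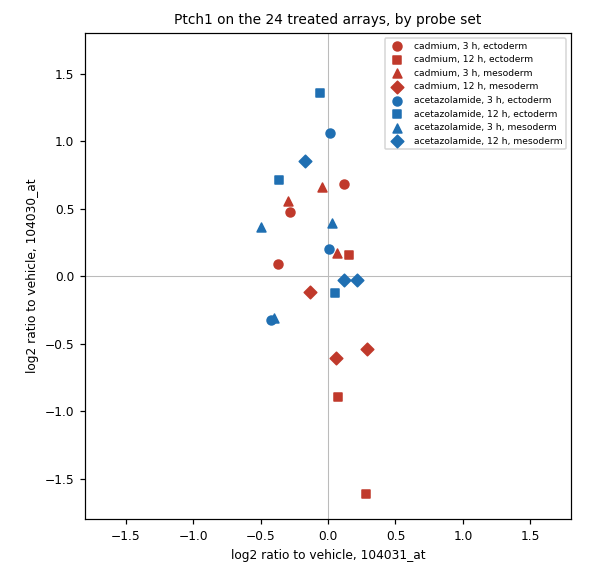
Log2 ratio to vehicle of the 2 Ptch1 probe sets on the 24 treated arrays, with 104031_at on the horizontal and 104030_at on the vertical axis. Each point is 1 array, coloured by agent and shaped by time and tissue. Points spread along the vertical axis from -1.61 to 1.36 but along the horizontal axis only from -0.50 to 0.29, and 15 of 24 arrays have opposite signs.

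Smo (96812_at) encodes Smoothened, the transducer that Patched1 holds inactive. In ectoderm 3 h after acetazolamide its treated arrays were at 0.05, -0.40 and -1.03, with vehicle arrays 1 and 2 at -0.03 and 0.03. The effect was -0.46 ± 0.18, or 1.38-fold lower, with an unadjusted p of 0.0180 and an adjusted p of 0.694 by limma. Of all probe sets in this comparison 0.0242% were called. Array 1 lay above its vehicle arrays and array 3, the lowest of the Smo values, had the lowest median of all probe sets on any array (-0.12). Without array 3 of either group the Smo effect was -0.18.

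Smo in ectoderm 3 h after cadmium was at 0.17, 0.18 and 0.37, with vehicle arrays at -0.14 and 0.12. Treated arrays were thus higher throughout, as they were for 5.32% of all probe sets there, and the effect was 0.24 ± 0.17. No probe set was called by limma in that comparison, and 3.39% had an unadjusted p under 0.05. In ectoderm 12 h after acetazolamide Smo had arrays at 0.46, 0.50 and -0.33, an effect of 0.23 ± 0.23. The remaining 5 Smo effects ran from -0.11 ± 0.14 (mesoderm 12 h after cadmium) to 0.11 ± 0.15 (mesoderm 3 h after cadmium).

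Gli1 (94097_at) encodes an activator whose own transcription follows pathway activity. In ectoderm 12 h after acetazolamide its treated arrays were at -0.59, -0.40 and -0.36, with oil arrays 1 and 2 at 0.45 and -0.65. The treated arrays lay close together, but oil array 2 lay below all of them. The effect was -0.38 ± 0.22 with an adjusted p of 0.677 by limma. Without oil array 2 it was -0.69 ± 0.19 with an adjusted p of 0.0382, in a fit that called 576 probe sets in place of 0, and without oil array 1 it was -0.06. The value therefore rested on which oil array was kept. The marker lists given beside Shh apply to this comparison also, and their part in it was not tested.

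In mesoderm 3 h after acetazolamide Gli1 was at -0.31, -0.31 and -0.30, with vehicle arrays at 0.08 and -0.08. All 3 treated arrays lay below the vehicle arrays, as did 6.03% of all probe sets there. The effect was -0.30 ± 0.18, or 1.23-fold lower, with an adjusted p of 0.853 by limma, in a comparison where 0.00805% of probe sets were called. The treated arrays differed by less than the residual SD of Gli1 over all groups (0.220), on which its test rests together with the spread of other probe sets. The 3' to 5' signal of the control probe sets, a measure of RNA integrity, was higher in the treated arrays by 0.52 (actin) and 0.59 (Gapdh), and its part was not tested.

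After cadmium, Gli1 in mesoderm was at 0.28, 0.16 and 0.03 at 3 h, an effect of 0.17 ± 0.14. At 12 h it was at -0.23, -0.07 and -0.25, with PBS arrays 1 and 2 at -0.18 and 0.16, an effect of -0.18 ± 0.13. Both groups overlapped their vehicle. In ectoderm the effects were -0.04 ± 0.17 at 3 h and 0.20 ± 0.25 at 12 h. The 12 h treated arrays were at 0.2004, 0.1974 and 0.1794, with PBS arrays 1 and 2 at 0.1968 and -0.2279. Treated arrays 1 and 2 thus lay just above PBS array 1, and treated array 3 within the PBS range. The other 2 acetazolamide effects were -0.06 ± 0.18 (3 h ectoderm) and 0.10 ± 0.19 (12 h mesoderm).

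Gli2 (100395_at), the main activator that Smoothened releases, had effects from -0.10 ± 0.23 in ectoderm 12 h after cadmium to 0.18 ± 0.13 in mesoderm 3 h after cadmium. Its smallest adjusted p was 0.954 by limma. In the group with the highest effect the treated arrays were at -0.09, 0.41 and 0.23, with vehicle arrays 1 and 2 at 0.09 and -0.09. Treated array 1 lay at the lower edge of the vehicle range and arrays 2 and 3 above that range. Over all treated arrays Gli2 ran from -0.35 to 0.41 with a median of -0.03.

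Gli3 (101182_at) encodes the chief repressor form of the pathway, which limits digit number. It had the smallest residual SD of the 7 probe sets, 0.126, with 22.8% of probe sets below it. In mesoderm 12 h after cadmium its arrays were at -0.13, -0.09 and -0.13, with vehicle arrays at 0.09 and -0.10, an effect of -0.12 ± 0.08. This had the smallest adjusted p of all 56 effects, 0.624, in the comparison in which the most probe sets were called, and treated and vehicle arrays overlapped. In ectoderm 3 h after acetazolamide they were at 0.02, 0.05 and -0.55, an effect of -0.16 ± 0.11 that was carried by array 3. The highest Gli3 effect was 0.07 ± 0.16, in ectoderm 12 h after cadmium.

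Seen by comparison, the members had no common direction. After cadmium, 5 of the 7 probe sets were above 0 at 3 h in either tissue, 4 in ectoderm at 12 h and 3 in mesoderm at 12 h. After acetazolamide, 1 of 7 was above 0 in ectoderm at 3 h, 2 in mesoderm at 3 h, 3 in ectoderm at 12 h and 5 in mesoderm at 12 h. The share of all probe sets above 0 was 45.5% and 49.7% at 3 h and 58.3% and 53.5% at 12 h after cadmium, in ectoderm and mesoderm, and 38.7%, 43.1%, 47.4% and 53.0% in the same order after acetazolamide. Medians over the 7 ran from -0.13 in ectoderm 3 h after acetazolamide, where that of all probe sets was -0.04, to 0.11 in mesoderm 3 h after cadmium, where it was 0.00.

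Whether an effect differed between times, tissues or agents was tested directly, with 84 differences (12 for each probe set). By limma 0 were called, against 0.0215% of all differences, and the smallest adjusted p was 0.486. At an unadjusted p under 0.05 there were 3, or 3.57% against 3.92% of all differences. Smo in ectoderm at 3 h was higher after cadmium than after acetazolamide by 0.71 ± 0.25, with an adjusted p of 0.719, where 6.07% of all probe sets had an unadjusted p under 0.05. For Smo in ectoderm after acetazolamide the effect at 12 h exceeded that at 3 h by 0.69 ± 0.29, where 2.93% did. Both rest on the same low acetazolamide arrays at 3 h. For Ptch1 104030_at in mesoderm after cadmium the effect at 12 h minus that at 3 h was -0.995 ± 0.45, with an adjusted p of 0.590 and 7.82% of all probe sets under 0.05. Without 1 array it ran from -1.35 to -0.53, while by 104031_at the effects were -0.08 at 3 h and 0.07 at 12 h.

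Averaging each agent over both tissues and both times narrowed the intervals. Of 21 mean effects (each agent, and both together), 0 were called by limma and 0 had an unadjusted p under 0.05, against 10.1% of all mean effects. Of all probe sets 0.346% were called for the cadmium mean, 0.62% for the acetazolamide mean and 0.338% for both together. After cadmium the 7 means lay between -0.04 and 0.07. After acetazolamide Gli1 stood at -0.16 ± 0.10, with an adjusted p of 0.468, and Shh at -0.10 ± 0.06, with an adjusted p of 0.461. Ptch1 was at 0.39 ± 0.22 by 104030_at and -0.12 ± 0.08 by 104031_at, and Gli2, Gli3 and Smo lay between -0.08 and -0.03. The 2 agents had separate vehicles, so their means share no control arrays.

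Of 104 other genes listed for Hedgehog signalling and limb patterning, 75 had a probe set. In the 8 comparisons 1 of the 824 effects of their 103 probe sets was called, or 0.121% against 0.204% of all effects. Another probe set was called for its mean over the 4 acetazolamide comparisons.

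Ccnd1 encodes cyclin D1, a cell cycle gene that Hedgehog signalling is known to induce along with other growth signals. In mesoderm 12 h after cadmium its probe set 94232_at was at -0.43, -0.60 and -0.61, with vehicle arrays 1 and 2 at -0.03 and 0.03. It fell by 0.55 ± 0.13 on the log2 scale, with an adjusted p of 0.0235 by limma. The second Ccnd1 probe set, 94231_at, gave -0.13 ± 0.09 with an adjusted p of 0.582 on the same arrays. The call was lost without PBS array 2 (adjusted p 0.0570), without cadmium array 2 (0.110), without array 3 of either group (0.146), without weights (0.687) and in a fit of these 6 arrays alone (0.152), although the effect stayed between -0.55 and -0.51 in these fits. It was kept with a replicate block (0.00787) and with both Ccnd1 probe sets averaged, at -0.34 ± 0.06 (0.00133). Among the 27 target probe sets it was the only one called, or 3.7% of them where 1.58% of all probe sets were called, and the list's median was -0.01, beside 0.01 for all probe sets. Ccnd2 (-0.50 ± 0.42) and the Bmp genes at the other end, Bmp2 (0.10 ± 0.08) and Bmp4 (0.18 ± 0.19), encode a second D-type cyclin and bone morphogenetic protein ligands.

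Gpc3 encodes a cell surface proteoglycan that binds Hedgehog ligand and holds the pathway back. Its mean effect over the 4 acetazolamide comparisons was 0.42 ± 0.10 with an adjusted p of 0.0398 by limma, where 0.62% of all probe sets were called. In mesoderm at 3 h the treated arrays were at 0.49, 0.69 and 1.04 with vehicle arrays at 0.13 and -0.14, an effect of 0.74 ± 0.18. In ectoderm at 3 h they were at 0.66, 0.11 and 1.37 with vehicle arrays at -0.18 and 0.16, an effect of 0.72 ± 0.18. At 12 h the effects were 0.29 ± 0.22 in ectoderm and -0.08 ± 0.19 in mesoderm. None of the 4 was called alone, with adjusted p-values of 0.273 and 0.373 at 3 h. The call on the mean was lost in 16 of 24 fits that each left out 1 array. It was kept in the 8 without oil or acetazolamide array 2 in 3 h ectoderm, oil array 1 or 2 in 3 h mesoderm, oil array 1 or 2 in 12 h ectoderm, and acetazolamide array 1 or 2 in 12 h mesoderm.

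The other co-receptors, transducers and ligands had no call. In mesoderm 3 h after acetazolamide the 5 co-receptor probe sets, with Gpc3 counted among them, had a median of 0.36, the value of Gpc4. Of these 5, 4 were above 0, and the median of all probe sets was -0.03. Gas1, a co-receptor that aids ligand binding, was at 0.39 ± 0.19 there, Cdon at 0.06 and Lrp2 at -0.04. Cytoplasmic and ciliary transducers had 27 probe sets. In mesoderm 12 h after cadmium the highest was a probe set of Kif3a, a motor subunit needed to build the cilium. It had 0.40 ± 0.11 (adjusted p 0.053 by limma), followed by Csnk1d at 0.39 ± 0.18. At the other end stood a probe set of Csnk1a1, a casein kinase that phosphorylates Gli proteins, at -0.70 ± 0.22 (adjusted p 0.113). Next to it was Prkar1a, a regulatory subunit of protein kinase A, at -0.65 ± 0.31. A further probe set each of Kif3a and Csnk1a1 lay between these effects, and its value is not given here. The 4 probe sets of the related ligands Ihh and Dhh had effects from -0.32 to 0.12 over all comparisons, and all 4 were below 0 in ectoderm 12 h after acetazolamide, with a median of -0.11.

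Limb patterning genes work upstream of Shh, beside it in the epithelial ridge, or under its control, and 40 probe sets represented 32 of 41 listed genes. In ectoderm 12 h after acetazolamide the ridge signals Fgf4 (0.85 ± 0.26, adjusted p 0.496 by limma) and Fgf8 (0.71 ± 0.31) were the highest of the list, and the anterior homeobox gene Alx4 (-0.58 ± 0.24) and the retinoic acid enzyme gene Aldh1a2 (-0.47 ± 0.27) the lowest. None was called, and 17 of 40 were above 0 with a median of -0.08. In ectoderm 3 h after acetazolamide Fgf4 (-0.30 ± 0.21) and Fgf8 (-0.25 ± 0.25) were instead the lowest of the list. The highest at 3 h were Sall4 (0.80 ± 0.29) and Meis2 (0.65 ± 0.28), with 15 of 40 above 0 and none called. In mesoderm 12 h after cadmium Hoxd9 (0.39 ± 0.13) and Ets2 (0.22 ± 0.12) were the highest, and Zbtb16 (-0.37 ± 0.13) and Meis2 (-0.26 ± 0.21) the lowest. The median there was -0.02, with 17 of 40 above 0.

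**Figure D4:**
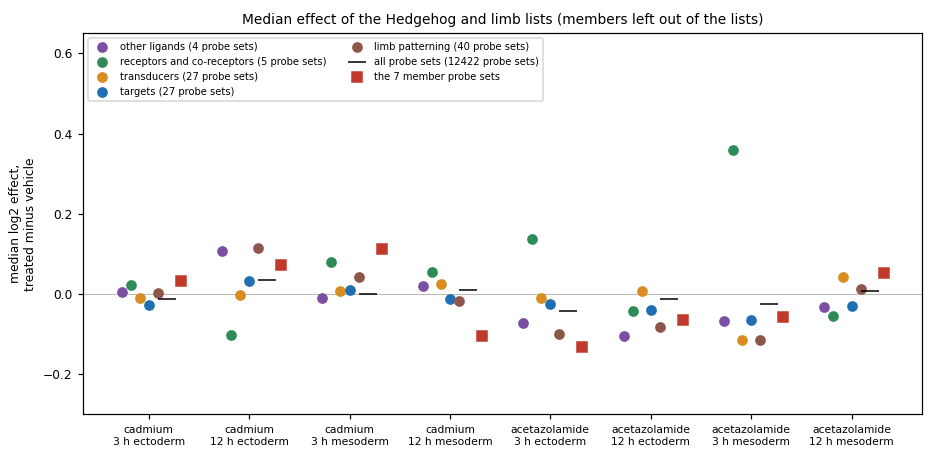
Median log2 effect, treated minus vehicle (vertical axis), in the 8 comparisons (horizontal axis) for the 7 member probe sets (squares), 5 lists of Hedgehog and limb genes without the members (circles) and all probe sets (bars). The highest list median is that of the 5 co-receptor probe sets in mesoderm 3 h after acetazolamide, at 0.36, and the member medians run from -0.13 to 0.11.

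The probe sets whose log2 ratios followed each member most closely over the 24 treated arrays were found by Pearson r, as a description of arrays that share agents and denominators. For Shh they were Camk2a (r = 0.84), Chrna6 (0.84) and Mos (0.83). For Ptch1 they were Rcor1, Arl14ep and Zik1 (0.84 to 0.88) by 104030_at and Ranbp10, Slc30a3 and Cxcr2 (0.91 to 0.92) by 104031_at, with no gene in common. For Smo they were Xpo6 (0.88), Cmtr1 and Fem1a, for Gli1 Junb (0.87), Med27 and Tert, and for Gli3 Dtna (0.80), Grin2a and Olfr49. Those closest to Gli2 were Srcap (0.66), Trp53inp2 (0.65) and Slc1a1 (0.59). No member was among the 3 closest of another. Between members the highest r was 0.56, for Ptch1 104031_at with Gli3, and Shh and Gli1 had 0.47, while Shh and Ptch1 104030_at had -0.48.

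Over the whole series, 203 effects were called, 196 of them in mesoderm 12 h after cadmium, 3 each in ectoderm 12 h after cadmium and 3 h after acetazolamide, 1 in mesoderm 3 h after acetazolamide and 0 in the others. Array medians of all probe sets lay between -0.12 and 0.10. In mesoderm 12 h after cadmium, where Ccnd1 was called and 53.5% of all probe sets were above 0, so were 17 of 19 endothelial marker probe sets (median 0.25), 13 of 16 blood (0.09) and 24 of 31 ectoderm (0.08). The limb mesoderm list had 10 of 25 above 0 (-0.05) and the myogenic list 3 of 9 (-0.03). The neural crest and nerve list had 4 of 13 (-0.03), and the notochord, floor plate and gut list 5 of 8 (0.03). There 1 probe set each of Tie1 and Sox18, endothelial genes, rose by 0.76 ± 0.18 and 0.77 ± 0.20 (adjusted p 0.0234 and 0.0437 by limma). A further probe set of either gene was not called. Alas2, an erythroid haem synthesis gene, rose by 0.53 ± 0.12 (adjusted p 0.0226 by limma). These genes were named after their values were seen. In mesoderm 3 h after cadmium 24 of 31 ectoderm probe sets were above 0 with a median of 0.15. In that comparison the limb mesoderm list had 11 of 25 above 0, the endothelial list 7 of 19 and the blood list 3 of 16. The myogenic list had 4 of 9, the neural crest and nerve list 4 of 13, and the notochord, floor plate and gut list 4 of 8. The 3' to 5' signal of the control probe sets was higher after acetazolamide than after oil in all 4 groups, by 0.23 to 0.52 for actin and 0.41 to 0.59 for Gapdh. In mesoderm at 12 h the Gapdh value came from array 2 (1.72, with -0.19 and -0.05 on the others). After cadmium Gapdh had 0.49 in ectoderm at 12 h and -0.25 to 0.10 elsewhere. Their part in the values of the members and of Ccnd1 was not tested.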

How the data were processed

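The files hold values of 48 Affymetrix mouse arrays, 1 for each sample. The deposited values are ratios to vehicle arrays, which their sums show. The signal algorithm and normalization are not given in the sources used here. The fraction of probes detected and the signal over background are unknown. The number of arrays limits the precision.

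Probe sets were named from the platform annotation (10855 with 1 gene, 396 with several, 1237 with none). After leaving out 66 controls, log2 ratios of 12422 probe sets were fitted with limma 3.58.1 in R 4.3.3, with 16 denominator means, 8 agent effects, 24 residual degrees of freedom and 1 precision weight per comparison, followed by eBayes. That treated arrays 1 and 2 share the mean of vehicle arrays 1 and 2, and treated array 3 that of vehicle array 3, was taken from the numbering. The fit was tested on simulated data with noise drawn independently for each array. Correlation between treated and vehicle arrays of the same number was therefore not covered. Intervals are at 95%.

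All member probe sets are named. Of the other Hedgehog and limb lists, called probe sets are named and, for each list and comparison described, the 2 largest effects in each direction, and for each member the 3 probe sets of highest r. The named list effects are those of single probe sets, and further probe sets of the same genes are not all shown. Members and lists were chosen with earlier results of these data known. Alternatives were the weights, the denominators, a replicate block, arrays 1 and 2 only, median centring, robust eBayes, gene averages, the 6 arrays alone, and leaving out each array.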

Additional observations from a re-analysis of the deposited data

Results flagged for a closer look

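In 10 differences between 2 comparisons, every treated array of one group lay above the mean log2 ratio of the vehicle arrays with which it shares a denominator, and every treated array of the other lay below it. Those are vehicle arrays 1 and 2 for treated arrays 1 and 2, and vehicle array 3 for treated array 3. The differences themselves were tested with limma, and 0 of the 10 passed after adjustment over all probe sets. Of these, 1 had an unadjusted p under 0.05. How often the differences of all probe sets meet the same rule was not counted. The 10 of 84 member differences therefore cannot be called more or fewer than usual.

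For Shh in ectoderm, cadmium minus acetazolamide was 0.26 ± 0.15 at 3 h (adjusted p 0.873) and 0.39 ± 0.21 at 12 h (adjusted p 0.492). For Ptch1 104030_at in mesoderm after cadmium, 12 h minus 3 h was -0.995 ± 0.45 (adjusted p 0.590).

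Gli1 made up the other 7. Its effect at 12 h minus that at 3 h in mesoderm was -0.34 ± 0.20 after cadmium (adjusted p 0.705), and 0.40 ± 0.26 after acetazolamide (adjusted p 0.999). Ectoderm minus mesoderm at 12 h was 0.38 ± 0.29 after cadmium, with an adjusted p of nearly 1, and -0.48 ± 0.29 after acetazolamide (adjusted p 0.958). Cadmium minus acetazolamide was 0.47 ± 0.23 in mesoderm at 3 h, 0.58 ± 0.34 in ectoderm at 12 h (adjusted p 0.501) and -0.28 ± 0.23 in mesoderm at 12 h, the first and last with adjusted p-values of nearly 1.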

How the results depend on the processing

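Of the 56 member effects, 24 kept their sign under every alternative and 32 changed it under at least 1. No alternative other than leaving out an array gave a call, with a lowest adjusted p of 0.265 by limma. Leaving out 1 array gave 1 call among members, Gli1 in ectoderm 12 h after acetazolamide, so the count there ran from 0 to 1 (effect -0.69 to -0.06).

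The replicate numbers were not taken as pairing the arrays, since the correlation of array 1 minus array 2 between treated and vehicle groups ran from -0.24 to 0.64 and passed 0.1 in only 3 of 8 comparisons, with 0.64 in mesoderm 12 h after cadmium and 0.56 in mesoderm 3 h after acetazolamide. With a replicate block 0 members were called (smallest adjusted p 0.312), and 473 of all probe sets in mesoderm 12 h after cadmium in place of 196. That count was 23 without weights, 33 with arrays 1 and 2 only, 1 from these 6 arrays alone and 67 to 431 without 1 array, the lowest without array 3 of either group and the highest without cadmium array 1. Ccnd1 was no longer called after median centring (0.0507) or with arrays 1 and 2 only (0.262), nor Gpc3 with arrays 1 and 2 only (0.551) or from the arrays of its comparisons alone (0.0676).

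With arrays 1 and 2 only, effects of turned sign were, after cadmium, Shh -0.093 (3 h mesoderm) and -0.015 (12 h mesoderm), Ptch1 104031_at -0.037 (12 h mesoderm), Gli2 -0.095 (3 h ectoderm) and Gli3 -0.0069 (12 h ectoderm). After acetazolamide they were Ptch1 104031_at 0.015 (3 h ectoderm) and 2.63e-05 (12 h ectoderm), Smo 0.11 (3 h mesoderm), Gli1 0.090 (3 h ectoderm), Gli2 -0.0029 (12 h ectoderm), and Gli3 0.035 (3 h ectoderm) and -0.00077 (12 h mesoderm). With the Ptch1 probe sets averaged, the sign of 104031_at turned to 0.15 and 0.25 (cadmium, 3 h ectoderm and mesoderm), -0.30 and -0.17 (cadmium, 12 h), 0.10 and 0.016 (acetazolamide, 3 h), 0.26 (acetazolamide, 12 h ectoderm), -0.46 (cadmium in ectoderm, 12 h minus 3 h) and 0.14 (acetazolamide mean). The average takes in 104030_at, which had the opposite sign in those comparisons.

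Leaving out 1 array turned the sign of 29 effects and 1 difference. In ectoderm 3 h after cadmium the ranges were -0.043 to 0.28 (Shh), -0.21 to 0.041 (Gli1), -0.095 to 0.13 (Gli2) and -0.027 to 0.078 (Gli3), and Gli3 cadmium minus acetazolamide there ran from -0.0025 to 0.30. In mesoderm 3 h after cadmium they were -0.093 to 0.12 (Shh), -0.20 to 0.087 (Ptch1 104031_at) and -0.058 to 0.24 (Smo). At 12 h after cadmium they were -0.28 to 0.14 (Smo) and -0.0069 to 0.19 (Gli3) in ectoderm, and -0.015 to 0.082 (Shh), -0.037 to 0.16 (Ptch1 104031_at) and -0.15 to 0.25 (Gli2) in mesoderm. In ectoderm 3 h after acetazolamide they were -0.0037 to 0.67 (Ptch1 104030_at), -0.21 to 0.015 (Ptch1 104031_at), -0.17 to 0.090 (Gli1), -0.13 to 0.0011 (Gli2) and -0.27 to 0.035 (Gli3). In mesoderm 3 h after acetazolamide they were -0.17 to 0.80 (Ptch1 104030_at), -0.22 to 0.11 (Smo) and -0.14 to 0.052 (Gli2). In ectoderm 12 h after acetazolamide they were -0.20 to 2.63e-05 (Ptch1 104031_at), -0.019 to 0.51 (Smo) and -0.077 to 0.085 (Gli2). In mesoderm 12 h after acetazolamide they were -0.074 to 0.039 (Shh), -0.023 to 0.48 (Ptch1 104030_at), -0.048 to 0.17 (Ptch1 104031_at), -0.12 to 0.31 (Gli1), -0.15 to 0.094 (Gli2) and -0.063 to 0.12 (Gli3). Apart from the stated construction, the cause of these changes was not tested. Signal over background is unknown, so its limits cannot be given.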
